A study of Mus musculus with 14 samples.

Results

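The 9 genes Meis1, Meis2, Meis3, Pbx2, Pbx3, Pknox1, Pknox2, Tgif1 and Tgif2 encode homeodomain proteins of the TALE class. The genes were chosen by family membership with the H3K27ac peaks at these genes already known, and their peaks were selected on overlap with the gene body extended by 50 kb on either side (mm9, GENCODE vM1). These 9 of 22367 protein-coding genes held 28 of the 13463 peaks in the E14 list, or 0.208%. Because measured peaks selected the members, every value below is a description without a test.

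The series has 14 samples from mouse retina, covering ChIP-Seq, ATAC-Seq and RNA-Seq in control and Lhx2 conditional knockout tissue. The sample described here was the H3K27ac ChIP-Seq at embryonic day 14 (E14), from the outbred CD1 strain with no knockout allele given. The labels name the cells as retinal progenitor cells (RPCs), whereas the methods describe whole dissected retinas, so it is not settled whether neurons already born at E14 were included. Both replicate libraries (n = 2) were pooled before peaks were called against 1 isotype control, so no peak has a replicate error and ranks that lie close together cannot be separated.

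After filtering, 113543038 ChIP tags and 9210563 control tags remained. The RPC genes Rax, Sox2 and Hes5 each carried a peak no more than 1000 bp from a transcription start site (TSS), as did 5 of 6 genes of early retinal neurons. None of 10 genes of other tissues, such as Alb and Myod1, did (0 of 10). In a bulk sample, acetylation in fewer cells and weaker acetylation in each cell cannot be told apart.

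TALE proteins carry a homeodomain with a short extra loop of amino acids between its first helices. MEIS and PKNOX proteins bind PBX proteins, and the resulting dimers, often together with HOX proteins, occupy DNA and recruit coactivators. TGIF proteins act mainly as corepressors, including of SMAD proteins in TGF-beta signalling. Meis1 and Meis2 are known for their expression in the early eye and retina and for acting upstream of Pax6. Acetylation of histone H3 at lysine 27 marks active promoters and active enhancers, and a long acetylated stretch over a start site is often seen at genes that define a cell type.

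Promoter sequences are shown first because the TSS peaks of the members differed in base composition as well as in length and height. RefSeq start sites (GRCm38.p6 table) matched 6 of the 9 members (Meis1, Meis2, Meis3, Pbx2, Tgif1 and Tgif2) at 10 starts, and all 10 upstream sequences were placed on mm9 by exact match. Printed are 5 that lay inside a TSS peak, 1 for each gene except Meis2. Those of Meis1, Pbx2, Tgif1 and Tgif2 overlap no annotated UTR and run 250 bases up to the RefSeq start. That of Meis3 was shortened by the 30 bases before the start that overlap a UTR. Lower case is used throughout, and capitals mark CG dinucleotides, the sites of DNA methylation that are dense in CpG island promoters.
Meis1, chr11:18918973-18919222, minus strand: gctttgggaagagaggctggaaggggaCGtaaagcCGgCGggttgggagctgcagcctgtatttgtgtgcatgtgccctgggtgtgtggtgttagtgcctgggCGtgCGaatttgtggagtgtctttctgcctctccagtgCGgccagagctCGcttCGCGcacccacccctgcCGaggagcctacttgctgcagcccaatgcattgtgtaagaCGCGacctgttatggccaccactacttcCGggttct
Meis3, chr7:16760494-16760713, plus strand: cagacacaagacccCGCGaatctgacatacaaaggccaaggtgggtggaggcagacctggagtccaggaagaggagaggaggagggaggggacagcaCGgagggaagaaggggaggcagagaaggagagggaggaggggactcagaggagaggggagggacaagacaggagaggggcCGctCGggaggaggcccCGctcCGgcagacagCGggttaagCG
Pbx2, chr17:34728954-34729203, plus strand: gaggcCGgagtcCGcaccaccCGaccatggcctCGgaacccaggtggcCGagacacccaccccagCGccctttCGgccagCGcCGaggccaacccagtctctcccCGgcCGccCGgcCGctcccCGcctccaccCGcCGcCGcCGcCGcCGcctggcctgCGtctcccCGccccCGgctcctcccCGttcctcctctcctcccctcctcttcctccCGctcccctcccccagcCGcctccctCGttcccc
Tgif1, chr17:71201075-71201324, minus strand: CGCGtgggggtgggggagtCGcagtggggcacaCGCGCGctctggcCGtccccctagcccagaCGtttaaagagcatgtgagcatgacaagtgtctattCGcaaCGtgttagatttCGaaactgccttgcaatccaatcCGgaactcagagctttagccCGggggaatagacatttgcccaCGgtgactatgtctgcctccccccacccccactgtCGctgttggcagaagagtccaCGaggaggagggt
Tgif2, chr2:156665493-156665742, plus strand: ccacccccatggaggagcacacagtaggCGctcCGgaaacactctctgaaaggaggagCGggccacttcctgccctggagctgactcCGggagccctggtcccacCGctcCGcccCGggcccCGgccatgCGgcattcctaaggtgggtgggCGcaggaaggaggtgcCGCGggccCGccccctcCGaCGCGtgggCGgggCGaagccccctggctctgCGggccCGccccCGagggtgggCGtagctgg

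The Pbx2 sequence was the richest in G and C of these 5, at 77.6% with 27 CG dinucleotides, followed by Tgif2 at 74.0% with 22. Meis1 (59.6%, 13 CG dinucleotides) and Tgif1 (58.8%, 16 CG dinucleotides) were the poorest in G and C. The Meis3 sequence had 64.5% G+C and 9 CG dinucleotides over 220 bases.

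Every member carried a TSS peak, here a peak overlapping the 1000 bp on either side of any annotated transcript start (9 of 9). Over all protein-coding genes this share was 49.8%. With the thresholds of a high-confidence peak (fold enrichment of at least 4 over the control and a q value of at most 0.001), 8 of 9 members kept a TSS peak, against 37.8% of all genes, and Meis2 did not. The TSS peak was at least 2000 bp long in 7 of 9 members, against 11.0% of the genes that had a TSS peak. Since peaks chose the members, these background shares are given for reference only.

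Among the MEIS genes, which encode the DNA-binding partners of PBX, the TSS peak of Meis1 was by far the longest. This peak (chr11:18907312-18921752) measured 14441 bp, rank 3 of all peaks by length. Its mean pileup, the number of ChIP fragments per base after scaling to the control, was 15.4, which was rank 6404 and close to the list median of 15.1. Its fold enrichment was 5.47 and its -log10 q was 6.74. By pileup it was thus ordinary for the list, whereas by fold enrichment it ranked 3081, the highest of the 9 members.

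The Meis1 peak ran from 2.79 kb upstream of the outermost annotated start to 11.6 kb into the gene. All 4 annotated starts of Meis1 lay inside it, the innermost 6.96 kb into the gene. It crossed exons 1 to 6 of the 13 exons of the transcript with most exons, and also the starts of the non-coding genes Gm16140 and Gm16141, so acetylation at those starts and at Meis1 cannot be told apart. It covered 8.41% of the gene body.

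The TSS peak of Meis2 (chr2:115887903-115889906) was 2004 bp long with a pileup of 9.29, rank 11727, the lowest pileup of the 9. Its fold enrichment was 3.70 and its -log10 q was 2.23. Against Meis2, the Meis1 peak was 7.21 times as long and 1.65 times as high. The Meis2 peak began 1669 bp inside the outermost start and held 2 of the 15 annotated starts, with 7 starts within 1000 bp of it. The upstream sequence of the RefSeq start of Meis2 lay outside the peak.

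The TSS peak of Meis3 (chr7:16760095-16761278) was the shortest of the members at 1184 bp, rank 5260 by length. Its pileup was 13.8, its fold enrichment 4.24 and its -log10 q 4.10. It spanned the single annotated start almost evenly, from 0.634 kb upstream to 0.549 kb downstream. Meis2 and Meis3 were the members below the list medians of pileup (15.1) and fold enrichment (4.46), and Meis1 was above both.

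The PBX genes encode the common partners of MEIS and PKNOX proteins. At Pbx2, the TSS peak (chr17:34728069-34730268) was 2200 bp long with a pileup of 17.9, a fold enrichment of 4.95 and a -log10 q of 7.15. It began 0.142 kb upstream of the outermost start and held 2 of 4 starts. The start of Gpsm3, a regulator of G protein signalling, lay 893 bp away.

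At Pbx3, the TSS peak (chr2:34226498-34228225) was 1728 bp long with a pileup of 21.5, rank 1320, or within the top 9.80% of all peaks. Its fold enrichment was 4.75, rank 5469, and its -log10 q was 7.41. It held 6 of 8 annotated starts, began 0.435 kb inside the outermost one, and had no other gene's start within 34.1 kb. Pbx3 therefore had a shorter peak than Pbx2, with a higher pileup and a lower fold enrichment.

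The PKNOX genes, also called Prep genes, encode PBX partners related to MEIS. The TSS peak of Pknox1 (chr17:31700576-31703097) was 2522 bp long with a pileup of 17.3, a fold enrichment of 4.92 and a -log10 q of 6.28. That of Pknox2 (chr9:36951835-36954728) was 2894 bp long with a pileup of 15.7, a fold enrichment of 4.89 and a -log10 q of 6.21. The pair were alike in length, height and enrichment, but differed in position. The Pknox1 peak spanned its start, from 1.14 kb upstream to 1.38 kb downstream, and also the start of AC166172.1. The Pknox2 peak lay wholly downstream, with its near edge 123 bp from the nearest of 2 starts, and no annotated start lay inside it.

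The TGIF genes encode corepressors. Tgif1 had a TSS peak (chr17:71197821-71202876) of 5056 bp, rank 54 of all peaks, with a pileup of 15.7, a fold enrichment of 4.54 and a -log10 q of 5.23. It covered 54.1% of the gene body and 6 of 9 annotated starts. The TSS peak of Tgif2 (chr2:156665109-156667172) was 2064 bp long with a pileup of 23.2, rank 673 and the highest of the 9. Its fold enrichment was 5.34, rank 3406, and its -log10 q was 8.97. Tgif1 thus had the longer peak, 2.45 times that of Tgif2, and Tgif2 the higher one, 1.47 times that of Tgif1.

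**Figure D1:**
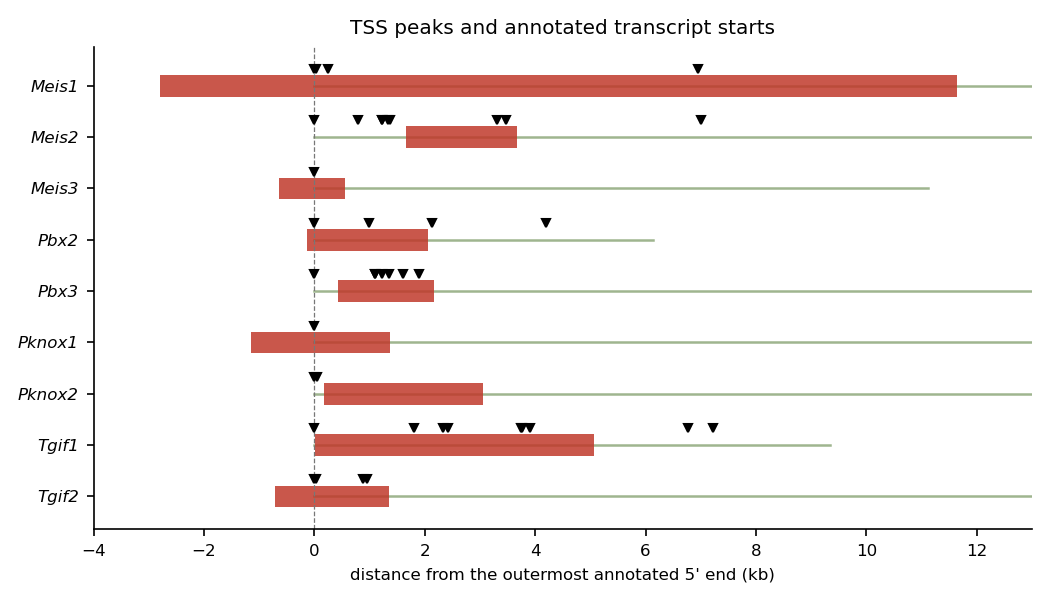
TSS peaks of the 9 genes (red bars) against distance in kb from the outermost annotated 5′ end, with triangles for annotated transcript starts and green lines for the gene body. The Meis1 bar reaches 11.6 kb into the gene, whereas the Pknox2 bar holds no start and the Meis2 bar holds 2 of 15.

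The 9 TSS peaks were 1184 to 14441 bp long (median 2200 bp), and their pileups lay between 9.29 and 23.2 (median 15.7). For comparison, all 10608 peaks within 1000 bp of a TSS had a median length of 1071 bp and a median pileup of 16.3. The members stood high in the list by length, with 9 of 9 above its median of 1015 bp and 7 in its top 10%. By pileup 7 of 9 lay above the median, 2 of them in the top 10% (Pbx3 and Tgif2). The outermost start was spanned in 5 of 9 (Meis1, Meis3, Pbx2, Pknox1 and Tgif2), and the other 4 began inside the gene.

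**Figure D2:**
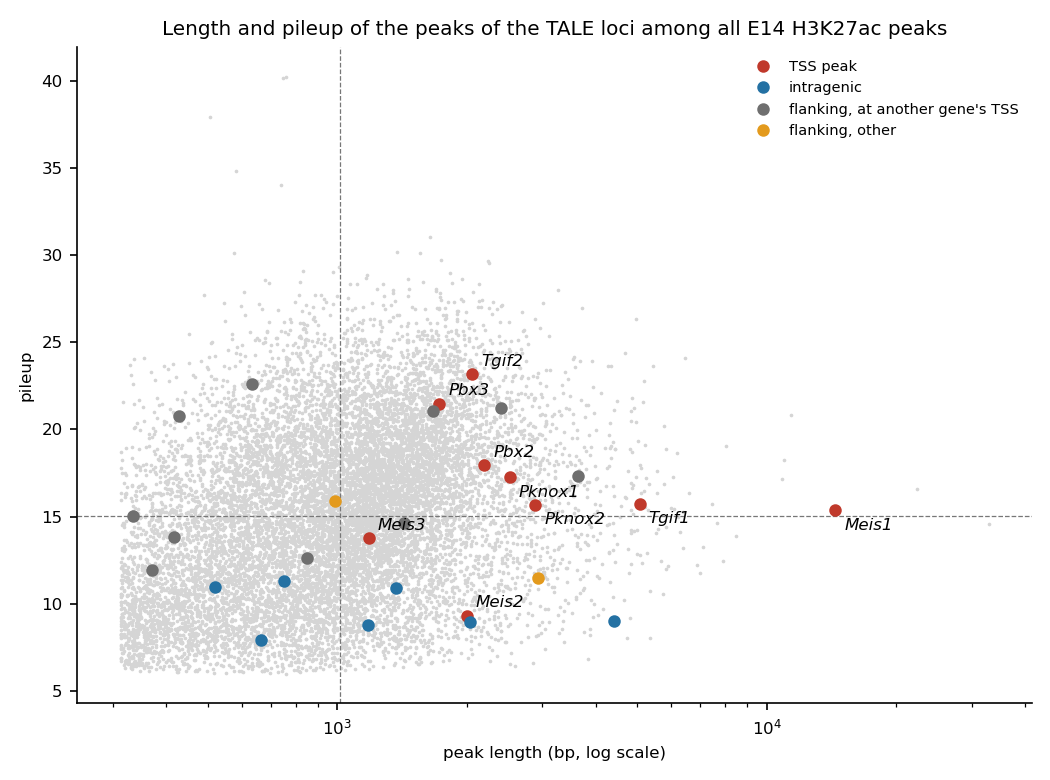
Length in bp (log axis) against pileup for all 13463 peaks (small light points) and for the 28 peaks of the 9 loci, coloured by class, with dashed lines at the list medians. Meis1 lies far to the right at 14441 bp near the median pileup, Tgif2 and Pbx3 are the highest TSS peaks, and all 7 intragenic peaks lie below the median pileup.

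Inside the genes, 7 peaks lay more than 1000 bp from the gene's own starts, and none of them was within 1000 bp of a start of another gene. All 4 members of at least 100 kb (Meis1, Meis2, Pbx3 and Pknox2) had such a peak, whereas 20.1% of the 2401 protein-coding genes of this length did. Of the 5 shorter members, 0 had one. The members with and without intragenic peaks were thus the long and the short genes.

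Meis1 held 3 of the 7. A peak in intron 7 was 2035 bp long with a pileup of 8.97, and a peak in intron 8 was 663 bp long with a pileup of 7.95. The third crossed exons 10 to 13 at the 3′ end of the gene and was 4415 bp long, rank 93 of all peaks, with a pileup of 9.0. All 3 had lower pileups than the Meis1 TSS peak (15.4), and none met the high-confidence thresholds.

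Meis2 held 2 intragenic peaks, both in intron 7. One was 1181 bp long with a pileup of 8.80, close to that of the Meis2 TSS peak (9.29). The other was 518 bp long with a pileup of 10.9, a fold enrichment of 4.39 and a -log10 q of 3.59. It was the 1 intragenic peak of the 7 past the high-confidence thresholds, and in Meis2 it stood higher than the TSS peak, with no error to judge the difference by.

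Pbx3 had a peak in intron 2 of 1369 bp with a pileup of 10.9, 35.5 kb from the nearest annotated start of the gene. Pknox2 had a peak in intron 2 of 752 bp with a pileup of 11.3, 92.4 kb from its nearest start. Both stood lower than the TSS peak of the same gene.

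The 7 intragenic peaks ranged in pileup from 7.95 to 11.3 with a median of 9.0. In the whole list, the 1249 peaks inside genes and more than 1000 bp from any start had a median pileup of 9.43. Intragenic peaks of the members were thus low in the way that most such peaks of the list were.

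**Figure D3:**
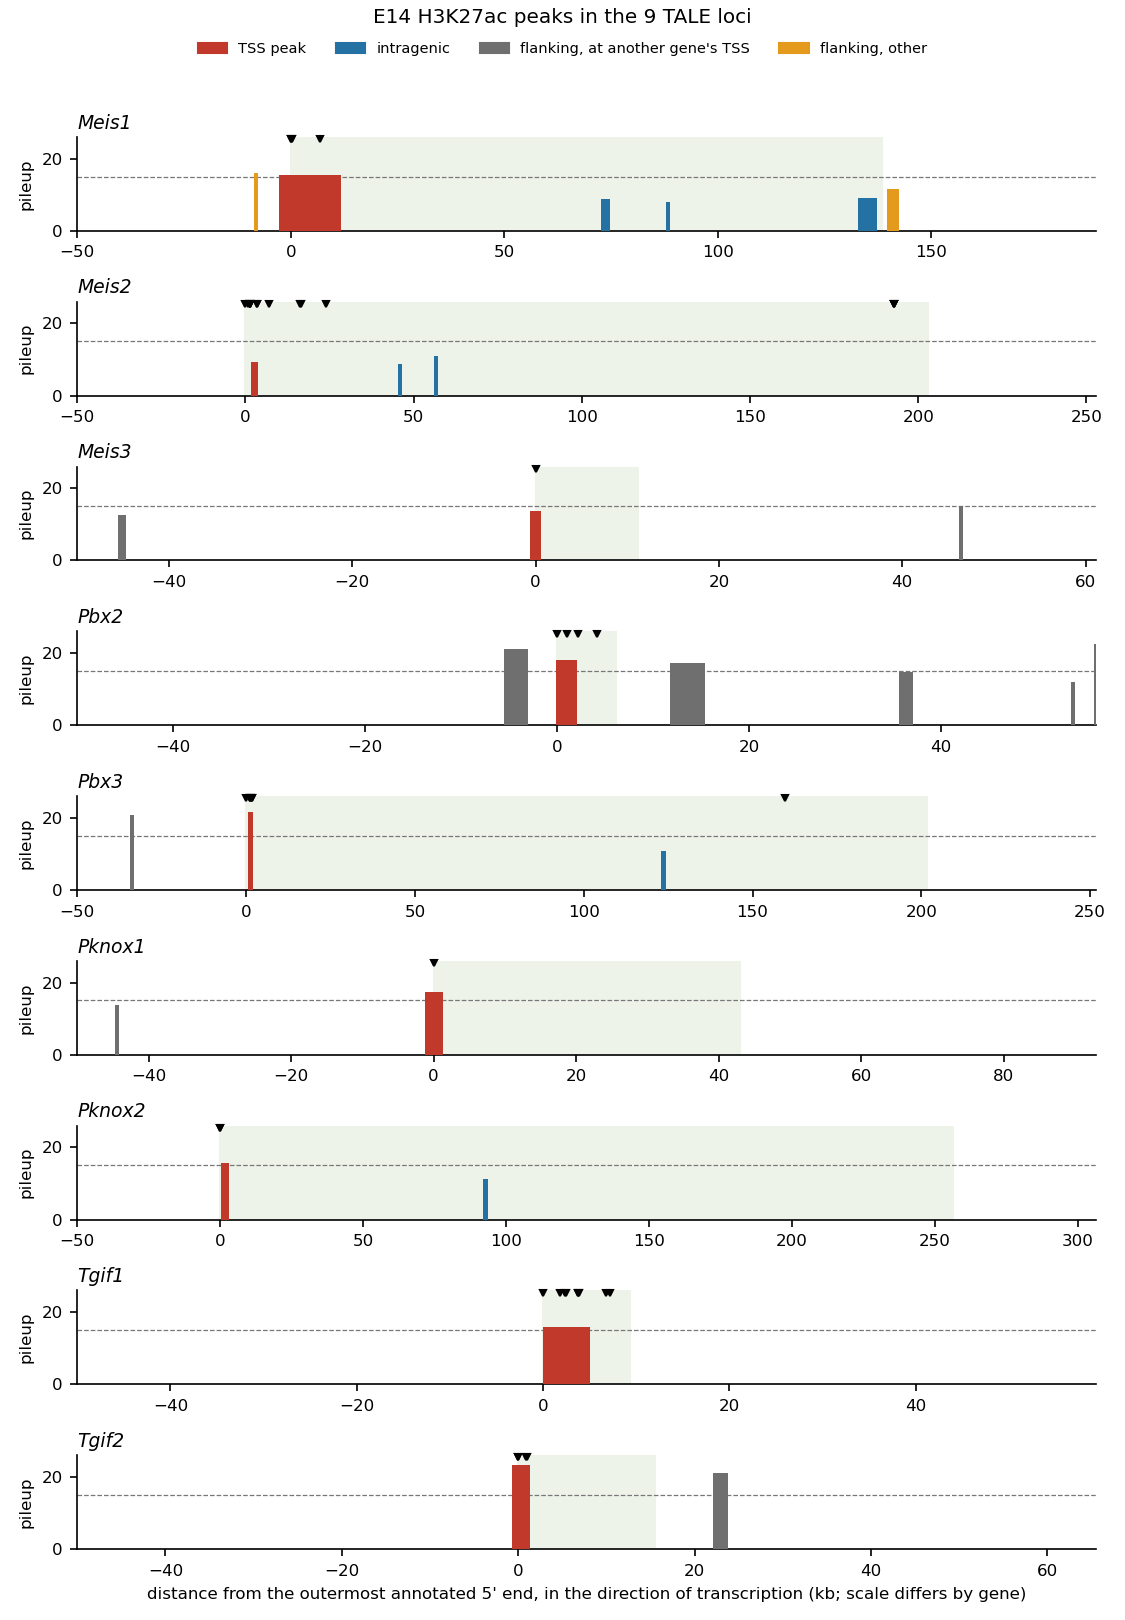
Peaks in each locus against distance in kb from the outermost 5′ end in the direction of transcription, with bar height for pileup, shading for the gene body, triangles for starts and a dashed line at the median pileup of 15.1. The narrowest bars are widened to be visible. The 4 genes of over 100 kb hold all the intragenic peaks (blue), and the Pbx2 locus is crowded by peaks at neighbouring genes (grey).

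The windows below show the intragenic sequence in which recognition motifs of these protein families occurred. In all, 4 motifs were searched on both strands in every peak. They were TGACAG, the core bound by MEIS, PKNOX and TGIF, TGATTGAC for PBX with MEIS or PKNOX, TGATTGAT for PBX with HOX, and TAATTA, a core shared by many homeodomains including that of LHX2. TGACAG and TGATTGAC overlap where both occur in 1 joined site. Of the 7 intragenic peaks 5 held a match, and for each the window of 100 bases outside exons with the most matches is given on the strand of the gene (mm9). Capitals mark the match, written TGACAG or, on the other strand, CTGTCA, and TAATTA, which reads alike on both strands.
Meis1 intron 7, chr11:18845114-18845213, minus strand: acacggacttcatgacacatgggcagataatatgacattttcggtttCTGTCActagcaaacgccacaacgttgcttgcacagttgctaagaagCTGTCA
Meis1 intron 8, chr11:18830454-18830553, minus strand: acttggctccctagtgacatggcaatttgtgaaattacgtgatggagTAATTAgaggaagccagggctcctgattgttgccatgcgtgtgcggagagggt
Meis1 peak over the last exons, chr11:18784265-18784364, minus strand: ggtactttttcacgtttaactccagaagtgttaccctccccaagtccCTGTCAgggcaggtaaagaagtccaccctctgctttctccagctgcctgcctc
Meis2 intron 7, chr2:115845571-115845670, minus strand: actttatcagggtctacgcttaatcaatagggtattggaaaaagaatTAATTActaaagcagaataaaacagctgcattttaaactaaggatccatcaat
Pbx3 intron 2, chr2:34105212-34105311, minus strand: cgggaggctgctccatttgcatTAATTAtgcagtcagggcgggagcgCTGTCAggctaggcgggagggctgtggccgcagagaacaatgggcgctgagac

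The Meis1 intron 7 window held 2 matches to TGACAG, and the Pbx3 window held 1 match to TGACAG and 1 to TAATTA. The printed windows were cut around matches, so a match in each was certain. Of 150639 windows of 100 bases laid end to end over all peaks, 5.43% held TGACAG and 0.990% held TAATTA. Over whole peaks, TGACAG was present in 4 of the 7 intragenic peaks and in 47.5% of all peaks away from a TSS, and TAATTA in 3 of the 7 and in 15.9%. The second Meis2 intragenic peak and that of Pknox2 held none of these letters. A match describes the sequence and does not show binding.

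Per kb, TGACAG occurred 0.915 times in the intragenic peaks (10 matches) and 0.909 times in the TSS peaks of the members (31 matches). It was present in 8 of 9 TSS peaks of the members, which are longer than most, and in 43.8% of all peaks near a TSS. Its density was 0.543 per kb in all peaks near a TSS and 0.828 per kb in all peaks away from one. Meis1 contributed 12 of the 31 matches, at 0.831 per kb. Pknox2 was the TSS peak without a match. TGATTGAT occurred in the TSS peak of Pknox1 alone among the members, and 1.34% of all peaks held it.

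TGATTGAC occurred in the Meis1 TSS peak alone among the member peaks, and 2.16% of all peaks held it. There it overlapped TGACAG as 1 joined site, TGATTGACAG, 330 bp downstream of the outermost start in the 5′ UTR of the annotation. It is shown because it joins the PBX and MEIS letters at the start of a MEIS gene, with the joined site in capitals.
Meis1 joined motif, chr11:18918612-18918641, minus strand: acctcgcctgTGATTGACAGctggagtggc

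Of all peaks, 89 held this joined site (0.661%), and 0.0114% of windows of 30 bases laid end to end did. The printed window was cut around the site. At 14441 bp against a list median of 1015 bp, the Meis1 TSS peak had more room for a match than most peaks. Per kb, TGATTGAC occurred 0.0692 times in it, from 1 match, and 0.0191 times in all peaks. None of the 10 upstream sequences of the members held any of the 4 motifs. Over the 32851 RefSeq upstream sequences of 250 bases, 15.9% held TGACAG, 0.691% TGATTGAC, 0.670% TGATTGAT and 4.84% TAATTA.

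Base composition differed between the classes in its medians, with overlapping ranges. The TSS peaks of the members had a median G+C content of 62.0%, the intragenic peaks 47.5% and the whole list 60.2%. The intragenic peaks reached from 42.6 to 57.6% and the TSS peaks of Meis1, Meis2 and Tgif1 lay in that range. All 7 intragenic peaks were below the list median, as were 4 of the 9 TSS peaks (Meis1, Meis2, Pknox2 and Tgif1). The Pbx3 TSS peak was the richest at 72.5% G+C, with a ratio of observed to expected CG dinucleotides of 0.958. That of Meis1 was the poorest in G and C at 48.1%, with a ratio of 0.502. The ratio was lower still in the TSS peaks of Meis3 (0.424) and Pbx2 (0.461). In 3 of the 9 TSS peaks it lay above the list median of 0.716.

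Both of the highest TSS peaks, Tgif2 (67.9% G+C) and Pbx3, were also the richest in G and C, and Meis2 (54.0%) was the lowest in pileup. The order did not hold throughout, since Meis1, the poorest in G and C, had a pileup of 15.4, above the list median, and Tgif1, at 54.9% close to Meis2, had one of 15.7. Over all 13463 peaks, pileup had a Spearman correlation of 0.438 with G+C content and of 0.583 with the ratio of observed to expected CG dinucleotides. Both are given as a description of peaks from 1 pooled library. G+C content can alter recovery in sequencing, and its part in these pileups was not tested.

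**Figure D4:**
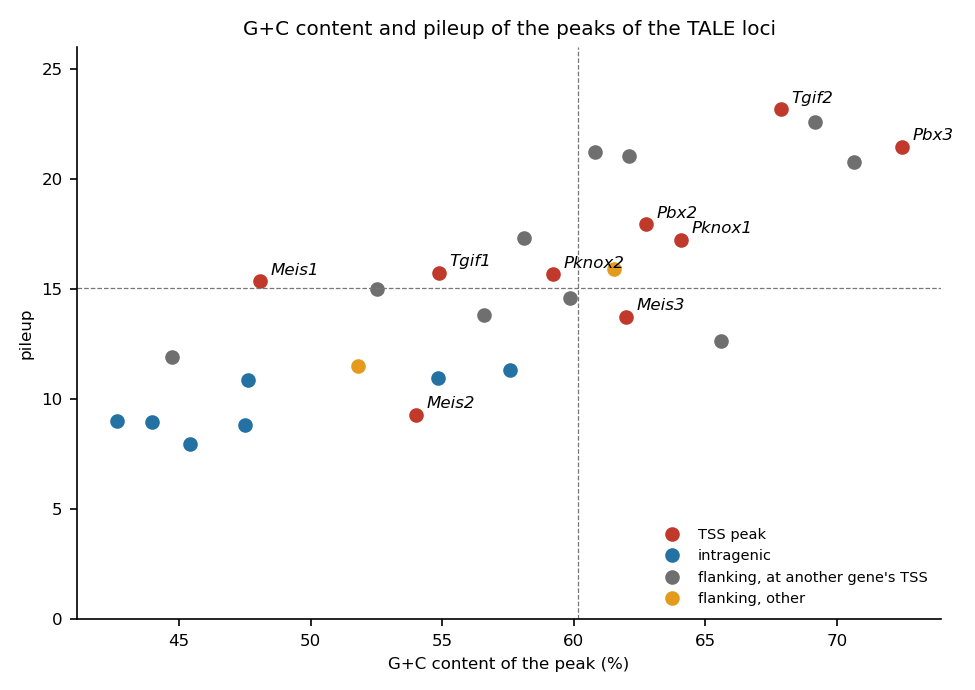
G+C content in percent against pileup for the 28 peaks of the 9 loci, coloured by class, with dashed lines at the list medians of 60.2% and 15.1. The intragenic peaks occupy the lower left, between 42.6 and 57.6% G+C, and the TSS peaks of Pbx3 and Tgif2 the upper right.

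Around the genes, 12 flanking peaks lay within 50 kb. Of these 10 were within 1000 bp of a start of another gene and are listed by that gene, and the other 2 belonged to the Meis1 locus. Upstream of Meis1, a peak of 990 bp with a pileup of 15.9 lay 7.58 kb from the start. Downstream, a peak of 2941 bp with a pileup of 11.5 lay 994 bp past the 3′ end, near the 4415 bp peak over the last exons. Both met the high-confidence thresholds. The other 8 loci held no peak apart from those of the gene itself and those at neighbouring starts.

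The Pbx2 locus had 5 flanking peaks, all at other genes. They lay at Notch4, a Notch receptor (2407 bp, pileup 21.2, fold enrichment 6.77), at Agpat1 and Rnf5 (3640 bp, pileup 17.3), at Ppt2 (1432 bp, pileup 14.6), at Fkbpl (371 bp, pileup 11.9) and at Atf6b (632 bp, pileup 22.6). The Notch4 and Atf6b peaks were higher than that of Pbx2 itself (17.9). Of the acetylated bases in the Pbx2 locus, 78.6% lay in these 5 peaks.

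The remaining flanking peaks were fewer and lay at Slc8a2 (849 bp, pileup 12.6) and Dhx34 (335 bp, pileup 15.0) beside Meis3, and at Mapkap1 (429 bp, pileup 20.8) beside Pbx3. The Pknox1 locus had a peak shared by the starts of Ndufv3 and Wdr4 (417 bp, pileup 13.8), and the Tgif2 locus a peak shared by 1110008F13Rik and 5430405H02Rik (1675 bp, pileup 21.0). Meis2, Pknox2 and Tgif1 had no flanking peak, and the TSS peak of Tgif1 was the only peak of its locus.

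The 50 kb limit fell close to a peak on either side. The Atf6b peak, 49.8 kb from Pbx2, was just inside (632 bp, pileup 22.6), and a peak at U2af1, 50.005 kb from Pknox1, was just outside (1773 bp, pileup 19.1). The next peak beyond the Meis1 window was 901 kb away, so the Meis1 peaks stood alone in a wide interval.

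Summed over the 28 peaks, 60751 bp of the extended loci were acetylated, and Meis1 held 41.9% of them. Meis1 had 25485 bp in 6 peaks, rank 6 of 22367 protein-coding genes, of which 14441 bp were the TSS peak, 7113 bp intragenic and 3931 bp flanking. Pbx2 followed with 10289 bp in 6 peaks (rank 268), and Tgif1 had 5056 bp in its single peak (rank 2492). The other 6 loci held 2368 to 3739 bp, ranks 4404 to 7991. The median gene had 1 peak and 1527 bp.

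Counting only peaks at the gene's own starts and within its body, Meis1 kept rank 6 with 21554 bp, Tgif1 moved to rank 160, and Pbx2 fell to rank 1476 with 2200 bp. Meis2 (3703 bp, rank 368) and Pknox2 (3646 bp, rank 386) came next after Tgif1. Longer genes give longer windows, and per kb of extended locus the order was Meis1 (107 bp, rank 123), Pbx2 (96.9 bp, rank 205) and Tgif1 (46.2 bp, rank 2011), while Pknox2, the longest gene, had 10.2 bp (rank 11506).

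**Figure D5:**
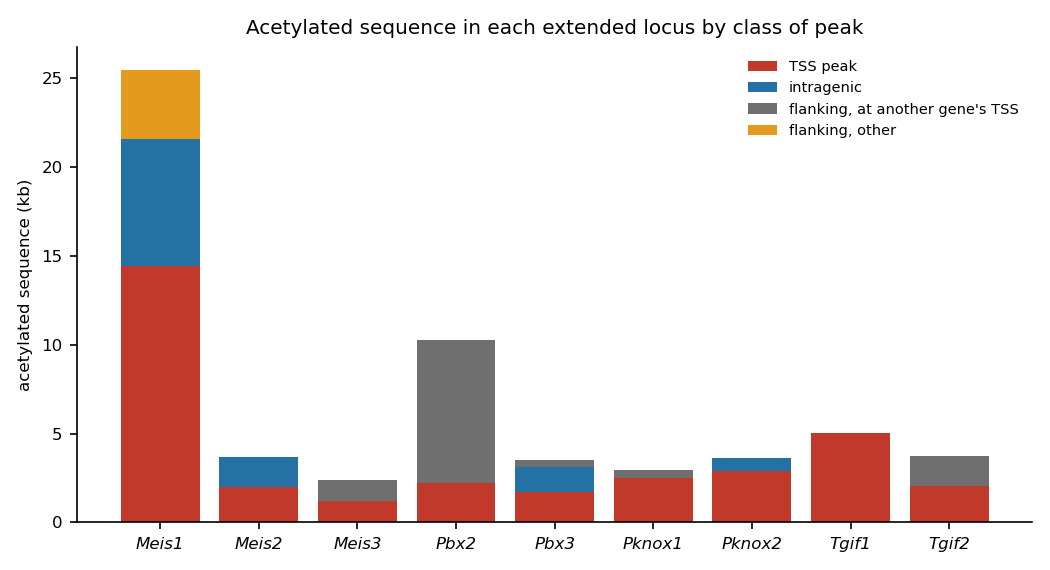
Acetylated sequence in kb within each extended locus, stacked by class of peak. Meis1 exceeds the other 8 loci with 25485 bp, most of the Pbx2 bar (78.6%) is sequence at other genes, and the Tgif1 bar is its TSS peak alone.

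Beside these 9, other TALE genes were examined. A TSS peak was present at the genes of the Iroquois factors Irx2 (718 bp, pileup 10.5) and Irx3 (382 bp, pileup 10.6), both shorter and with a lower pileup than the list medians. Pbx4, Mkx, Irx1, Irx4, Irx5, Irx6, Tgif2lx1 and Tgif2lx2 had none.

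Of 11 genes for known partners of these proteins, 11 carried a TSS peak, with a median length of 1922 bp and a median pileup of 16.1. Over all protein-coding genes 49.8% carried one. This share is for reference only, since the list was chosen with earlier results of these data known. These included Smad2 (1922 bp, pileup 16.1), Smad3 (2016 bp, pileup 17.4) and Smad4 (1371 bp, pileup 16.4), the signal transducers that TGIF proteins repress. The corepressor genes Ctbp2 (4477 bp, pileup 21.6) and Sin3a (5176 bp, pileup 16.5) had the longest, of a length near that of Tgif1. Pbxip1, which encodes a protein that binds PBX, had the shortest at 681 bp.

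Among homeobox genes of other classes, Six3 had a TSS peak of 22347 bp with a pileup of 16.6, a combination of length and near-median height also seen at Meis1. The progenitor genes Pax6 (32865 bp, pileup 14.6), Rax (6096 bp, pileup 15.4) and Sox2 (5974 bp, pileup 15.5) had it too. Not all progenitor genes examined did. Ccnd1 (7915 bp, pileup 12.43) and Fgf15 (4842 bp, pileup 12.28) were long with a lower pileup, and Six6 (2395 bp, pileup 20.15) was shorter and higher. The longest TSS peak of Lhx2 was 2560 bp with a pileup of 19.2, close in length to that of Pknox1.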

How the data were processed

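H3K27ac ChIP-Seq of E14 retina was the sample used, with 2 replicate libraries and 1 isotype control. Per the submitters' processing notes the authors aligned reads with Bowtie2, and per the file header MACS 2.1.0.20140616 was run by them on the pooled replicates for broad regions, with a broad cutoff of 0.1 and no more than 1 tag kept at a position. Pileup is a signal that the authors deposited as the mean over each region after scaling to the shallower control. Fold enrichment is the deposited ratio of ChIP to local control signal, and -log10 p and -log10 q values were deposited by the authors as averages over each region. Peak length is in bp. The other 13 samples were not analysed here.

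Peaks were joined to GENCODE vM1 genes on mm9 by an overlap of at least 1 bp, and classed as TSS, intragenic or flanking in that order. Ranks were taken among all 13463 peaks or all 22367 protein-coding genes. Sequences were read from mm9 and from RefSeq promoters. The members, gene lists and motifs were chosen with earlier results of these data known. Named genes were all 9 members with every peak of their loci, neighbours at those peaks, and genes of the lists, of which some are not reported here. No low-value filter was applied, and 9 of 9 members entered. Depth, 113543038 ChIP and 9210563 control tags, limits the precision of weak peaks. Redundant tags made up 67% of all control tags and 29% of all ChIP tags, and every fold enrichment and q value rests on this 1 control. The overlap search was tested on simulated data, with 200 of 200 planted TSS peaks recovered. Alternatives were stricter thresholds, other windows and other definitions of a TSS peak. Python 3.11.15, pandas 2.3.3, numpy 2.4.6 and matplotlib 3.10.9 were used.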

Additional observations from a re-analysis of the deposited data

How the results depend on the processing

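All 9 members kept a TSS peak with q of at most 0.01, with windows reaching 5000 bp upstream and 1000 bp downstream and with protein-coding transcripts only. The count was 8 with the high-confidence thresholds and with the outermost start alone (without Meis2), and 8 with the start itself inside the peak (without Pknox2). The 28 peaks became 16 in the gene bodies only and 14 without peaks at the start of another gene. The acetylated 60751 bp became 46565 at high confidence, 58053 at q of at most 0.01, 56679 with flanks of 10 kb, 72434 with flanks of 100 kb, 39613 in the gene bodies only and 27730 without peaks at the start of another gene, where the TSS peaks of Meis1, Pbx2, Pknox1 and Tgif2 also drop out since another gene starts within 1000 bp. Ranked by fold enrichment in place of pileup, the Meis1 TSS peak moved from 6404 to 3081, Pbx3 from 1320 to 5469 and Tgif2 from 673 to 3406. No paired analysis was possible because the replicates were pooled in 1 peak list. The pooled list gives no replicate error, the control is shallower than the ChIP library, and broad calling can join or split neighbouring regions.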
